A study of Mus musculus with 40 samples.

Results

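Gonadal white adipose tissue of 20 male mice fed a high fat (HF) diet after weaning was examined for genes whose expression followed the body weight of the animal. These were the animals carrying the diet label HF, 20 of the 40 in the series, and they were taken whatever their measured expression. The HH group (n = 10) was born to and nursed by dams fed the HF diet, and the LH group (n = 10) had dams fed the low fat (LF) diet. All were males, C57BL/6J and 9 weeks old at death per the study's methods, killed after a fast, and each gave 1 bead array. The other 20 animals were fed the LF diet after weaning and had HF fed dams (HL, n = 10) or LF fed dams (LL, n = 10). The diets were coconut-oil based, the LF diet being rich in carbohydrate. Dams were fed their diet from before mating until their litters were weaned. The weight used was the second and later of the 2 weights in the labels. The second weight label names weaning, but every value in it lay above every weight at 3 weeks. Each animal was compared with the mean of its own group, so that a slope is the change in log2 intensity per gram of body weight among animals of the same maternal and post-weaning diet. The labels also give a cage (4 cages of HH and 4 of LH animals), and animals of 1 cage are not independent of each other. Fat was present as labelled, since 14 of 14 genes of fat cell identity, Adipoq and Plin1 among them, were above background.

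Fat cells of a growing pad store triglyceride in a single droplet and enlarge as they fill. Large fat cells are known to secrete more leptin, while the mitochondrial genes of fat cells, those for breakdown of branched-chain amino acids among them, are known to be lower in obese animals. Mest, Sfrp5, Npr3 and Bmp3 are known as genes of mouse fat whose levels vary between genetically identical mice with their tendency to gain fat.

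The 10 HH animals weighed 28.44 g at the lowest, 30.05 g at the median and 34.06 g at the highest (mean 30.53 ± 1.68 g, SD). The 10 LH animals weighed 27.2, 30.6 and 32.6 g (mean 30.33 ± 1.86 g). The 2 groups overlapped over most of their range, and the heaviest HH animal, HH 7 (34.06 g), stood apart from the next, HH 10 (32.27 g). Of the variation in weight within the groups, 42.2% lay between cages. The heaviest cages on average were cage 4 of LH (32.06 g, 2 animals) and cage 20 of HH (31.78 g, 3 animals).

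**Figure D1:**
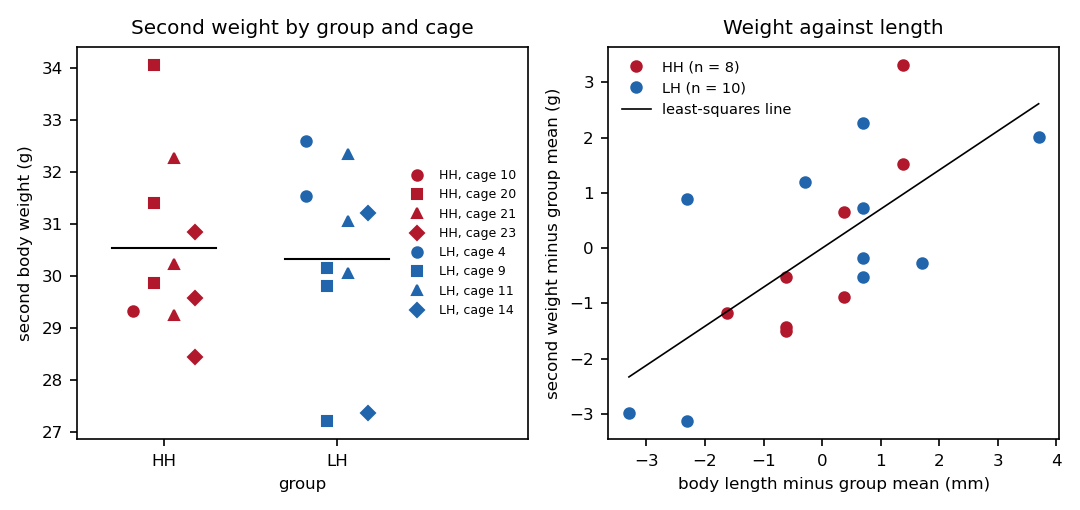
Second body weight of the 20 HF fed animals by group, with symbols for the cage and a line at the group mean (left), and second weight against body length, both as differences from the group mean, for the 18 animals with a length label (right). Weights ran between 28.44 and 34.06 g in HH and between 27.2 and 32.6 g in LH, and longer animals were heavier (r = 0.68).

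Heavier animals were longer and had been heavier at 3 weeks. Centred on the group means, second weight correlated with body length (r = 0.68, rho = 0.67, permutation p = 0.00261 and 0.00331, adjusted p = 0.00553 over 3 relations, n = 18, since 2 HH animals have no length) and with weight at 3 weeks (r = 0.62, rho = 0.65, permutation p = 0.00369 and 0.0024, adjusted p = 0.00553, n = 20). The correlation with blood glucose did not pass the threshold (r = 0.44, rho = 0.33, permutation p = 0.0575 and 0.166, n = 20). Without the 2 animals farthest from the median weight, r was 0.62 for length, 0.58 for weight at 3 weeks and 0.16 for glucose. With values centred on cage means, r was 0.77 for length (adjusted p = 0.00966) but 0.33 for weight at 3 weeks (adjusted p = 0.167). The relation with weight at 3 weeks thus kept its sign but did not pass the threshold within cages, and the change in r was not tested.

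Over all probes, no gene passed the threshold for a relation with second weight. Of 14244 probes above background, 0 (0%) had a slope with an adjusted p under 0.05 (limma, Benjamini-Hochberg over all probes, smallest adjusted p = 0.733). At an unadjusted p under 0.05 there were 710 probes (4.98%), of which 434 (3.05%) had a negative and 276 (1.94%) a positive slope. The median slope was close to 0 (-0.00077 log2 units per g), and 90% of slopes lay between -0.053 and 0.052. The median half-width of an unadjusted 95% interval was 0.054 log2 units per g. A call over all probes demanded more than an interval without 0, so slopes well beyond 0.054 could also go uncalled. All genes named in the next paragraphs up to the model with body length are therefore given as values of genes that were not called. Because tissue was measured whole, fewer cells of a type and less RNA per cell cannot be told apart.

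Of the 12 genes with the smallest p of negative slopes, 8 are given with their slopes. St6galnac5, a sialyltransferase, had the smallest p of all. Its intensity was 138.3, 271.0 and 371.7 units (lowest, median, highest) in HH and 126.0, 220.0 and 323.9 units in LH. The lowest values belonged to HH 7 and LH 4, the heaviest animal of each group, and the slope was -0.20 ± 0.04 log2 units per g (SE, p = 0.00012, adjusted p = 0.733). Alas1, the first and rate-setting enzyme of heme synthesis, had 6975.8, 8949.0 and 11592.0 units in HH and 6606.5, 8386.3 and 9689.4 units in LH. Its highest value was in the lightest HH animal and its lowest LH value in the heaviest LH animal, with a slope of -0.083 ± 0.018 (p = 0.00022, adjusted p = 0.733). Mycl, a transcription factor of the Myc family, had 613.8, 809.9 and 1518.7 units in HH and 398.4, 885.6 and 1221.5 units in LH, with a slope of -0.19 ± 0.04. Its slopes were alike in the 2 groups, -0.17 in HH and -0.20 in LH. Negative slopes were also found for Nudt7 (-0.095), a hydrolase of coenzyme A in peroxisomes, Nudt12 (-0.086), a hydrolase of NADH, Selenbp1 (-0.080), a methanethiol oxidase, Pde1a (-0.12), a cyclic nucleotide phosphodiesterase, and Txnrd3 (-0.073), a thioredoxin reductase. Without HH 7 the slopes of St6galnac5 (-0.18), Alas1 (-0.086) and Mycl (-0.21) were of the same size.

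Several genes with the smallest p of positive slopes had their largest value in the heaviest animal. Prr15 had 144.0, 282.2 and 1668.5 units in HH and 181.5, 239.1 and 395.0 units in LH. Its highest value was that of HH 7, against 525.8 units in the next HH animal, and its slope was 0.31 ± 0.07 with HH 7 (p = 0.00021, adjusted p = 0.733) and 0.20 without. Ank1, an ankyrin of the membrane skeleton in red cells and muscle, had 92.3, 109.2 and 1813.9 units in HH and 85.0, 106.8 and 134.4 units in LH, and its slope of 0.32 ± 0.10 became 0.10 without HH 7. A second probe of Ank1 gave 0.32 and 0.089. HH 7 was also highest of its group in Itga2b, the platelet integrin subunit (364.1 units against an HH median of 109.5), in Fam171a2 (524.9 against 164.7) and in Slc41a2, a magnesium transporter (359.0 against 139.9). Less of the slope came with HH 7 in Pcbd1, a dehydratase of the tetrahydrobiopterin cycle (0.16 ± 0.04, and 0.13 without HH 7), and in Atox1, a copper chaperone of the cytosol, which had 1854.7, 2459.2 and 3648.6 units in HH (slope 0.099 ± 0.030, and 0.075 without HH 7). Slc31a2, a copper transporter, had 0.064 (0.061 without HH 7), and Cldn7, a claudin of tight junctions, had 0.066 (0.055). Shmt2, the serine hydroxymethyltransferase of mitochondria, had 0.073 with HH 7 and 0.048 without. It lay near background (82.2 to 138.9 units in HH and 81.3 to 109.1 in LH), and Cldn7 was also dim (98.7 to 144.4 and 95.7 to 132.9 units).

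**Figure D2:**
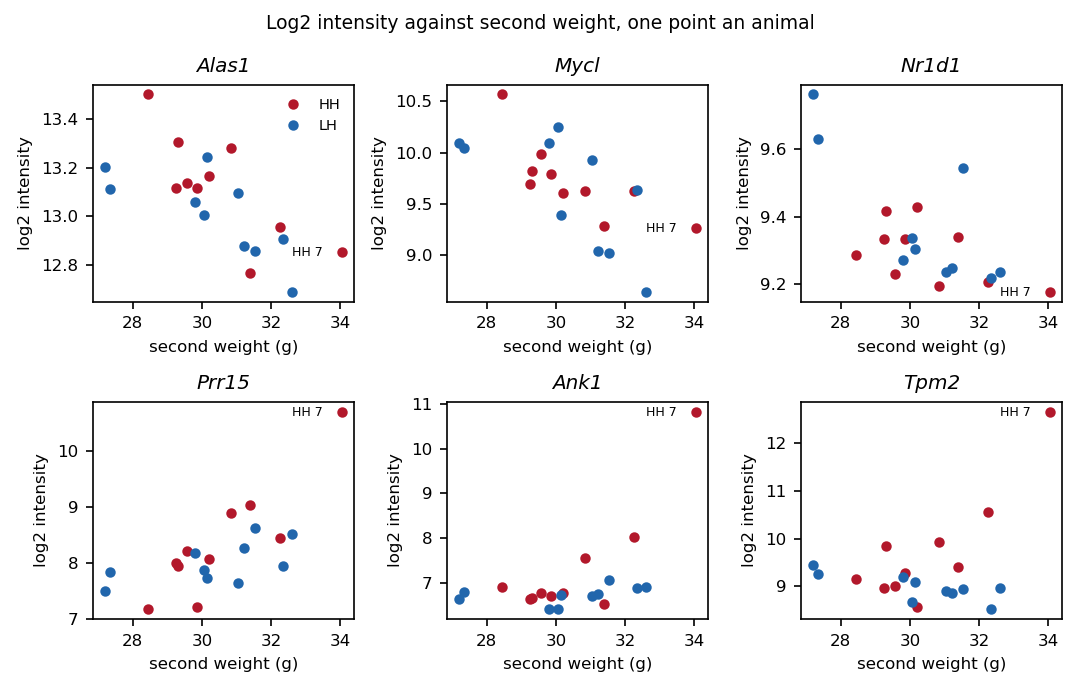
Log2 intensity of 6 genes against second weight (g) in HH (red) and LH (blue) animals, 1 point an animal, with the heaviest animal named. Alas1 and Mycl were lower in heavier animals of each group, while the level of Prr15, Ank1 and Tpm2 in HH 7 stood far above all other animals.

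Leptin and the genes known for fat expansion were given whatever their result. Lep, the satiety hormone of fat cells, had 6398.1, 12314.7 and 15704.6 units in HH and 5460.9, 11623.4 and 20988.1 units in LH. The heaviest LH animal had the highest value, but HH 7 had 11592.0 units, below the median of its group, and the slope was 0.080 ± 0.065 (95% interval -0.054 to 0.21, r = 0.27, rho = 0.29, permutation p = 0.282 and 0.233). It was 0.044 without LH 4 and 0.13 without LH 1. Bmp3, a secreted bone morphogenetic protein, had a larger slope (0.20 ± 0.09, p = 0.039, adjusted p = 0.994). Its value in HH 7 was 1955.6 units against an HH median of 578.9, and the slope was 0.11 without that animal. Sfrp5, a secreted Wnt inhibitor, had a slope of 0.14 ± 0.07 (p = 0.055) and Slc5a7, the choline transporter, one of 0.18 ± 0.08 (p = 0.047). Within cages the slope of Sfrp5 was 0.044 (p = 0.465), and without LH 4 that of Slc5a7 was 0.11 (p = 0.165). Mest (-0.036 ± 0.113) and Npr3 (0.024 ± 0.051), the clearance receptor of natriuretic peptides, had no direction beyond their error, and without LH 4 that of Npr3 was -0.011.

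Nr1d1, a repressor of the circadian clock, was the one gene of this fixed set with an unadjusted p under 0.01. It had 579.1, 635.2 and 690.2 units in HH and 596.1, 625.2 and 869.1 units in LH. The values of the groups overlapped, the 2 lightest LH animals (869.1 and 792.3 units) were the highest of all, and the slope was -0.058 ± 0.017 (p = 0.0028, adjusted p = 0.994, r = -0.68, rho = -0.66, permutation p = 0.00194 and 0.00213, and r = -0.55 without the 2 animals farthest from the median weight). The correlations were computed for 89 probes in all.

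For 4 genes of fat synthesis and glucose uptake given whatever their result, the 95% intervals included 0. The slopes were -0.0041 ± 0.0211 for Scd1, the main desaturase of fat cells, 0.065 ± 0.072 for the elongase Elovl6, 0.087 ± 0.067 for fatty acid synthase (Fasn) and -0.015 ± 0.027 for Slc2a4, the insulin-responsive glucose transporter. Scd1 reached the highest value of any probe in HH and in LH (43659.0 units), so a rise in it could have gone unseen. Adiponectin (Adipoq) had -0.032 ± 0.023. Ccl2, a chemokine that draws monocytes, had 0.052 ± 0.084, and its highest value was 707.8 units in HH 5, against 115.5 units in HH 7. Adgre1, the macrophage marker F4/80, had 0.0065 ± 0.0646. The 95% intervals were -0.13 to 0.14 for Adgre1 and -0.27 to 0.20 for Mest, so that slopes of some size in each direction were not detectable. Ucp1 of brown fat cells did not pass the filter on dim probes.

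**Figure D3:**
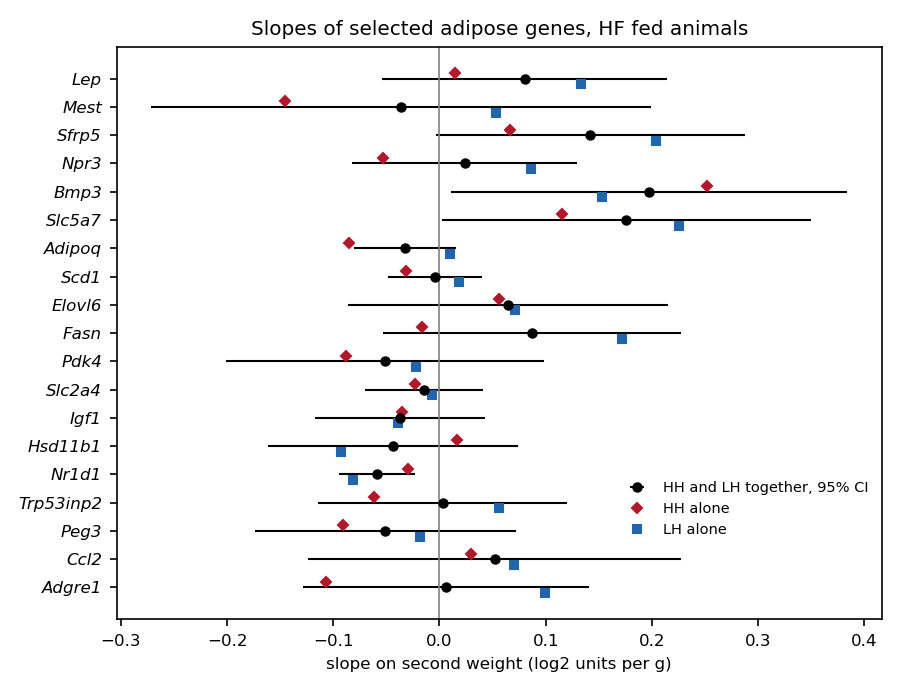
Slope of log2 intensity on second weight for 19 genes shown whatever their result, with 95% confidence intervals over the 20 HF fed animals (black) and the slopes of HH (red) and LH (blue) animals alone. The intervals of Bmp3 and Slc5a7 lie just above 0 and that of Nr1d1 lies below it, before adjustment over all probes, and the others include 0.

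Among the gene lists, those of branched-chain amino acid breakdown and of testis genes (9 of 9, median -0.24) had negative slopes throughout. Over all 9795 genes, 190 had a positive and 305 a negative slope at an unadjusted p under 0.05 (5.05% in all), and the median slope was -0.00077. In the breakdown of branched-chain amino acids 14 of 14 genes had a negative slope, 5 of them at an unadjusted p under 0.05, with a median of -0.046. Pccb, a subunit of propionyl-CoA carboxylase, had the smallest p of the list (-0.062 ± 0.020, p = 0.0056), followed by Ivd, the isovaleryl-CoA dehydrogenase of leucine breakdown (-0.081 ± 0.031), and Bckdha, a subunit of the branched-chain ketoacid dehydrogenase (-0.059 ± 0.024). At that p the other lists of mitochondrial fuel use were near or below the share of all genes. They had 2 of 21 in fatty acid oxidation (median -0.026), 0 of 22 in the citrate cycle (-0.030) and 0 of 21 in the respiratory chain (-0.0049). Whatever the p, 16 of 21, 16 of 22 and 15 of 21 of their slopes were negative, while 4772 of all 9795 genes had a positive slope. In triglyceride synthesis and uptake 4 of 17 genes had a negative slope at that p, Lpin1 (-0.073), Gpam (-0.094), Mogat1 (-0.073) and Slc27a1 (-0.11), and 1 a positive one. In the circadian clock list it was 3 of 15 negative, Nr1d1, Per3 (-0.084) and Per1 (-0.079), and 1 positive, Arntl (0.069). Cholesterol synthesis leaned the other way, with 15 of 17 genes positive (median 0.045) and none at an unadjusted p under 0.05. De novo lipogenesis had 1 of 18 genes at that p, Aacs, which activates acetoacetate (-0.063), and insulin signalling 1 of 15, Pik3r1, a regulatory subunit of phosphoinositide kinase (-0.081). The lists of macrophages (1 of 13), collagens (0 of 22) and adipokines (0 of 10) had few or no genes at that p. None of the genes in any list was called, and the members of a list share their animals, so these counts are descriptions.

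Since longer animals were heavier, the slope was also fitted with body length in the model, as weight at a given length, in the 18 animals with a length label. Here 31 of 14244 probes (0.218%) were called, and all 31 fell with weight at a given length (limma, adjusted p between 0.0254 and 0.0488). They belong to 27 named genes and 2 unnamed probes. The model with length was the only alternative of the slope fit with any call. It was chosen for description after its calls were seen, and the adjusted p do not cover that choice. At an unadjusted p under 0.05 there were 1687 probes (11.8%), 1138 negative (7.99%) and 549 positive (3.85%). The same 18 animals without the length term gave 0 calls and 533 probes at that p, and length alone gave 0 calls and 314 probes. The 31 slopes lay between -0.37 and -0.12 log2 units per g, a fold of 0.776 to 0.921 per g. The coefficient of length at a given weight was positive for 31 of the 31 probes (0.10 to 0.35 log2 units per mm), and was itself called only for Dusp4 (adjusted p = 0.0201). Since weight and length were correlated (r = 0.68), the 2 coefficients of a probe are not independent. The positive signs are therefore tied to the choice of probes with negative weight slopes. The slopes were negative for 31 of 31 within HH and 31 of 31 within LH, which are the same animals and add no independent support.

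Enzymes of fuel breakdown and fat storage and receptors that restrain lipolysis were among the called genes. Ranges are given over all 10 HH animals, 8 of which entered the model. Ivd had 1850.8, 2462.7 and 3573.7 units in HH and 1950.4, 2946.7 and 3497.8 units in LH. The lowest values were those of HH 7, LH 2 and LH 4, each of them heavy for its length, and Ivd fell by 0.19 ± 0.03 log2 units per g (SE, adjusted p = 0.0375). Bckdha had 1378.7, 1700.8 and 2104.9 units in HH and 1531.1, 2038.8 and 2381.7 units in LH. It was again lowest in HH 7 and in LH 2, with a slope of -0.13 ± 0.02 (adjusted p = 0.0375). Acot4, an acyl-CoA thioesterase of peroxisomes, had the smallest p (slope -0.28 ± 0.04, adjusted p = 0.0254). It had 148.8 units in HH 7, the lowest of HH (median 205.4), and 134.4, 137.3 and 153.1 units in LH 3, LH 2 and LH 4, the 3 lowest of LH (median 260.2). Gpam, the acyltransferase that commits glycerol phosphate to triglyceride, had 235.0, 343.3 and 461.7 units in HH and 261.3, 398.5 and 478.1 units in LH, and a slope of -0.19 ± 0.04 (adjusted p = 0.0432). Acad12, of the acyl-CoA dehydrogenase family, had -0.15 ± 0.03.

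Hcar1, the lactate receptor of fat cells, and Hcar2, the receptor of niacin and ketone bodies, both lower lipolysis when engaged and both are on chromosome 5. Hcar1 had 513.6, 1141.9 and 1551.2 units in HH and 786.8, 1269.9 and 1868.8 units in LH. Among the 8 HH animals with a length the lowest, HH 7, was followed by HH 10 with 878.5 units, LH 4 was the lowest of LH, and the slope was -0.28 ± 0.05 (adjusted p = 0.0375). Hcar2 had 299.5, 610.2 and 713.5 units in HH and 448.1, 668.7 and 998.1 units in LH, and HH 7 and LH 2 were again the lowest of their groups (slope -0.24 ± 0.04, adjusted p = 0.0375). Tst, the mitochondrial sulfurtransferase rhodanese, had the steepest slope (-0.37 ± 0.07, adjusted p = 0.0432), with 401.6, 605.5 and 804.2 units in HH and 347.3, 663.7 and 1734.1 units in LH. Other called genes of metabolism were Vnn3 of the pantetheinase family (2 probes, -0.25 and -0.22), Chdh, the choline dehydrogenase (-0.20), Cyp2e1, a cytochrome P450 (-0.16), Mgst1, a microsomal glutathione transferase (-0.12), and Tmem126b, an assembly factor of respiratory complex I (-0.13). Cyp2e1 lies near the top of the array's scale (19795.8 to 39640.5 units in these animals, where 43659 was the highest value of any probe).

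The remaining called genes were Dusp4, a phosphatase of MAP kinases (-0.28), Sgk3, a kinase of the phosphoinositide pathway (-0.17), Mycl (-0.28), Pard6g of cell polarity (-0.23), Negr1, a cell adhesion molecule (-0.20), Sort1, the sorting receptor sortilin (-0.16), St6galnac5 (-0.28), Eif4a2, a translation initiation helicase (2 probes, -0.15 and -0.12), Trit1, an enzyme that modifies transfer RNA (-0.22), Zfand6 (-0.14), Tceal1 (-0.13), Fam210b (-0.18), Fam126b (-0.14) and Gfod2 (-0.15). Several of these rest on 1 of a gene's probes. The called probe of Sort1 was its dimmest. The 2 brightest probes of Sort1 had slopes of -0.0080 and -0.015 and the remaining one -0.096, none called. The other probe of Trit1 had -0.010 and the other probe of Mgst1 -0.035. The other probe of Zfand6 and the brightest of Sgk3 had positive slopes (0.071 and 0.068). The other probes of Dusp4 (-0.15, adjusted p = 0.0852) and Negr1 (-0.13, adjusted p = 0.166) ran the same way without passing the threshold.

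**Figure D4:**
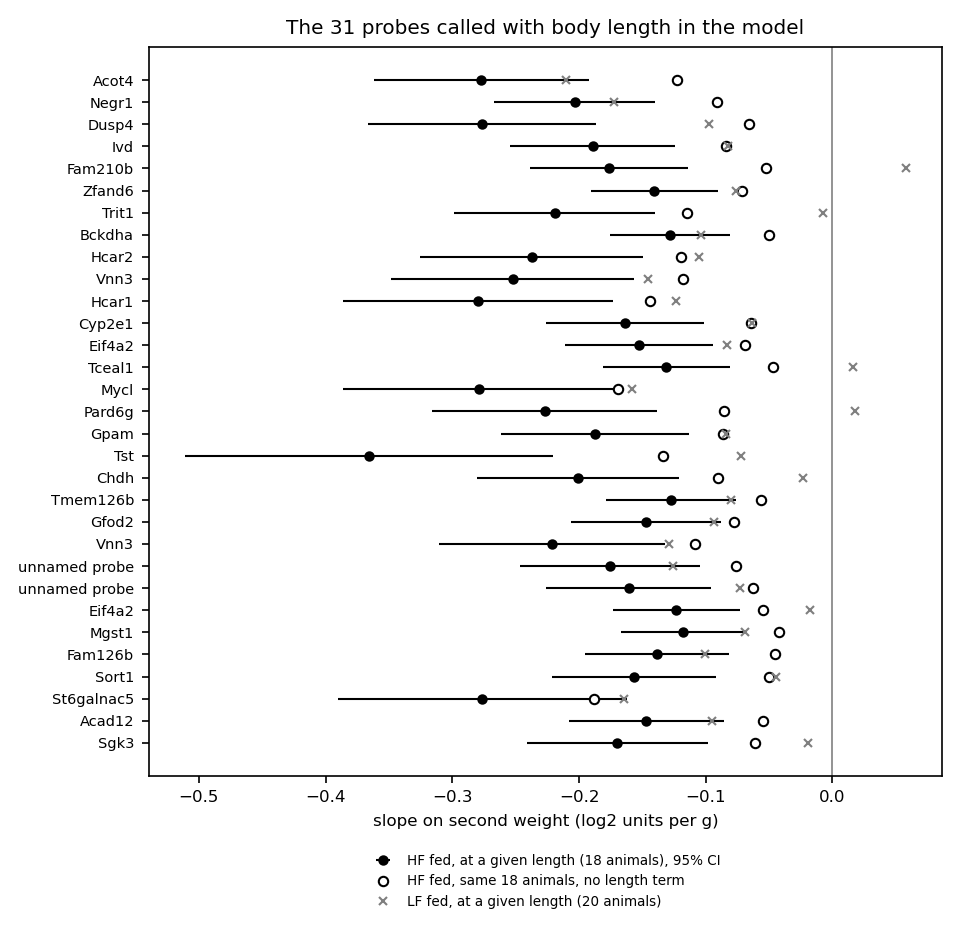
Slopes on second weight (log2 units per g) of the 31 probes called with body length in the model, ordered by p, with 95% confidence intervals (filled), beside the slopes of the same 18 animals without the length term (open) and those of the 20 LF fed animals with length in the model (crosses). All filled points lie between -0.37 and -0.12, and the open points are closer to 0 (-0.19 to -0.042).

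The calls depended on a few HF fed animals. Weight for length, the second weight left after group mean and length were taken out, was 1.41 g in LH 3, 1.78 g in LH 4, 2.34 g in HH 7 and 2.5 g in LH 2, and between -1.51 and 0.55 g in the other 14. HH 7 had the lowest HH value of 26 of the 31 probes, and LH 2 the lowest LH value of 18. With each of the 18 animals left out in turn the count ran between 0 and 56, and it was 0 without HH 7, without LH 2, without LH 3, without LH 4 and without LH 5, the animal lightest for its length. It was 14 without LH 1, 2 without LH 7, 1 without LH 8, 16 without LH 9, 20 without HH 1, 2 without HH 2, 56 without HH 5, 5 without HH 6, 49 without HH 8 and 4 without HH 10. In each of these 18 fits 31 of the 31 slopes stayed negative. Without the 4 animals heaviest for their length, 0 probes were called, while 31 of 31 slopes were negative (median -0.15, median SE 0.077) and 11 had an unadjusted p under 0.05. Over all probes tested, 290 (2.04%) had such a p in that fit. LH 3 and LH 4 came from 1 cage, 48.3% of the variation in weight for length lay between cages, and with the cage as a fixed term 0 probes were called and 31 of 31 were negative. With the cage as a random effect 18 were called, all 18 among the 31. The 31 probes were picked for negative slopes in these same animals. Their signs and p in fits on part of the animals, or with the cage, therefore add no independent support.

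**Figure D5:**
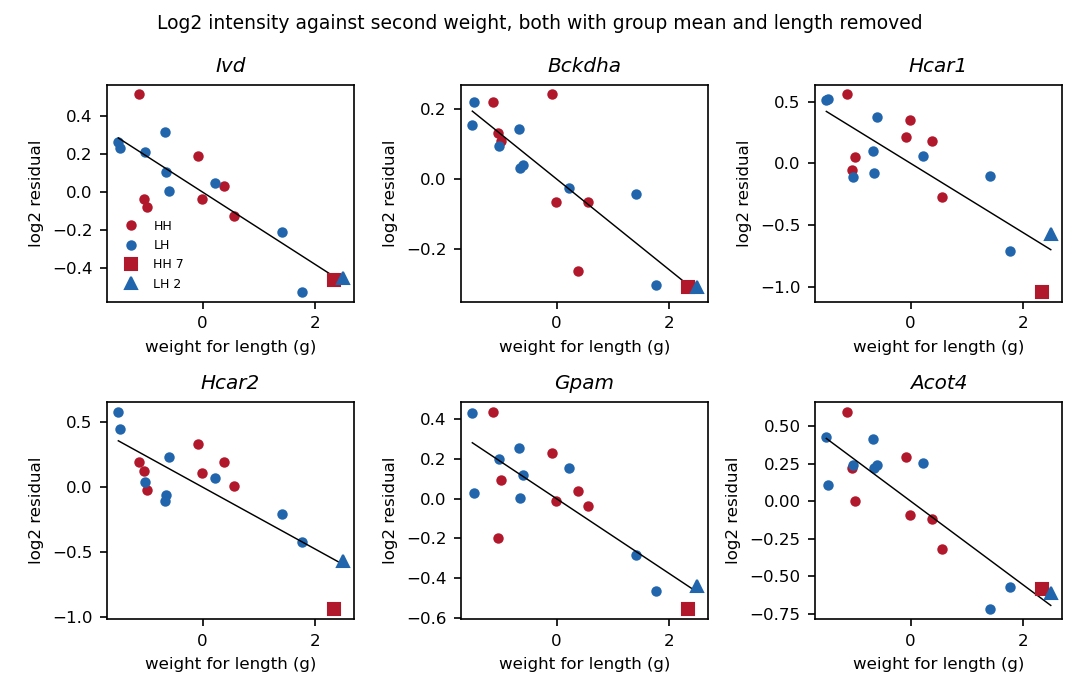
Log2 intensity of 6 called genes against second weight (g), both after removal of the group mean and of body length, in the 18 HF fed animals with a length label, with HH 7 as a square and LH 2 as a triangle. The 4 animals at 1.41 g and above lie below 0 for all 6 genes, and the other 14 animals lie between -1.51 and 0.55 g.

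With length in the model, several lists of mitochondrial metabolism and that of fat cell identity held more negative than positive slopes, and some other lists of fat cells did not. Over all 9795 genes, 789 (8.06%) had a negative and 412 (4.21%) a positive slope at an unadjusted p under 0.05. In the breakdown of branched-chain amino acids it was 7 of 14 genes negative and 0 positive (median -0.084), and Ivd and Bckdha were called. In the citrate cycle list 8 of 22 were negative and 0 positive, among them Fh1, fumarate hydratase (-0.11 ± 0.03), and Dlat of the pyruvate dehydrogenase complex (-0.079 ± 0.026). In fatty acid oxidation 7 of 21 were negative and 0 positive, led by Cpt2, the inner carnitine palmitoyltransferase (-0.12 ± 0.03, p = 0.00031, adjusted p = 0.0726). In the respiratory chain list it was 6 of 21 negative and 0 positive, and in the antioxidant list 6 of 20 negative and 0 positive, led by Sod1 (-0.11 ± 0.02, adjusted p = 0.054). The fat cell identity list had 13 of 14 slopes negative and 3 at that p, Plin1, the coat protein of the lipid droplet (-0.14 ± 0.03), Pparg (-0.096) and Cebpa (-0.097). De novo lipogenesis had 9 slopes of each sign (median -0.0031), adipokines 5 of each sign with 2 positive and 0 negative at that p, and insulin signalling 8 positive and 7 negative. Lists outside mitochondrial metabolism also had negative slopes at that p and 0 positive ones. It was 4 of 11 in LXR targets and sterol export, 3 of 7 in brown and beige adipocyte genes, 4 of 13 in imprinted genes and 4 of 17 in triglyceride synthesis and uptake. Of the genes in all lists, Ivd, Bckdha and Gpam were called and no others. Members of a list share their animals, a few of which carried the calls, so these counts are descriptions.

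Of the 9 genes of fat expansion, 4 had positive slopes at an unadjusted p under 0.05 at a given length and 1 a negative one, and none was called. Bmp3 had 0.45 ± 0.11 (p = 0.00078, adjusted p = 0.0989), Lep 0.26 ± 0.08 (p = 0.0035, adjusted p = 0.169), Sfrp5 0.27 ± 0.10 and Npr3 0.17 ± 0.06. Slc5a7, which is not in that list, had 0.41 ± 0.10 (p = 0.00078, adjusted p = 0.0989). Without the length term the same 18 animals gave 0.21 for Bmp3, 0.090 for Lep, 0.15 for Sfrp5, 0.035 for Npr3 and 0.19 for Slc5a7. The negative one of the list was Nnat, an imprinted gene (-0.24 ± 0.11, p = 0.036), and Peg3 had -0.049 ± 0.091. The 3 probes of Mest had 0.22, 0.24 and 0.28, with unadjusted p of 0.081, 0.028 and 0.053. In the tubulin and cytoskeleton list 6 of 11 genes were positive at an unadjusted p under 0.05, among them Tubb2b (0.27 ± 0.08) and Tuba1a (0.30 ± 0.12). Collagens had 20 of 22 slopes positive (median 0.10) but 1 at that p, and cholesterol synthesis 17 of 17 positive (median 0.083) with 1 at that p. Macrophage genes had 10 of 13 positive and 2 at that p, the lectin Lgals3 (0.14) and Trem2 (0.15), while Cd14 had a negative slope (-0.19 ± 0.05).

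Other tissues in the pad were measured beside these results. The summed intensity of 14 genes of fat cell identity was 88295 to 118679 units in HH and 96626 to 122623 units in LH. It was low in HH 10 (88295) and HH 7 (92341), and LH 2, LH 3 and LH 4 had 108513, 108728 and 103559 units, inside the range of their group. The brightest genes weigh most in such a sum, and 13 of the 14 genes had a negative slope at a given length. The 9 skeletal muscle genes above background summed to 5175 to 166079 units in HH and 5359 to 22805 units in LH, with 166079 units in HH 10, 34638 in HH 3 and 18234 in HH 7. Transcripts of neighbouring reproductive organs were brightest in HH 8 (65494 units over 6 genes of epididymis and seminal vesicle) and LH 5 (30532 units over 9 testis genes). Without the 4 arrays set aside for such transcripts (HH 1, HH 8, HH 10 and LH 5), the model with length called 11 probes, 8 of them among the 31. The arrays kept were not free of such transcripts. Testis genes summed to 10987 units in HH 6 and 10471 in LH 7, and those of epididymis and seminal vesicle to 7435 in HH 3. The part of other tissues in the slopes was not tested.

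Maternal diet was compared next, by testing whether the slope on weight differed between HH and LH animals. No probe passed (0 of 14244, 0%, smallest adjusted p = 0.0731), though 1500 probes (10.5%) had an unadjusted p under 0.05, 537 with a higher slope in HH (3.77%) and 963 with a lower one (6.76%). The smallest p were those of Pdlim3 and Tpm2, proteins of the contractile apparatus of muscle, Scin, an actin-severing protein, Nrn1, a secreted neuritin, and Ank1. Pdlim3 had 334.4, 499.3 and 3937.4 units in HH and 292.6, 417.2 and 872.9 units in LH. The 2 highest HH values were in HH 7 and HH 10 (3106.0 units), the 2 heaviest HH animals, while the highest LH value was in the lightest LH animal, and the slopes were 0.64 in HH and -0.21 in LH (difference 0.85 ± 0.14, adjusted p = 0.0731). Tpm2 had 378.3, 648.7 and 6491.5 units in HH and 367.3, 495.9 and 695.7 units in LH, with a difference of 0.71 ± 0.12. Without HH 7 the differences were 0.79 for Pdlim3, 0.42 for Tpm2, 0.43 for Scin, 0.25 for Nrn1 and 0.32 for Ank1, with adjusted p between 0.113 and 0.16. HH 7 had the highest HH value of all 5 genes, and HH 10 is the array brightest in skeletal muscle transcripts. A fit without HH 10 left out all 4 arrays bright in transcripts of neighbouring organs and kept HH 7. In it the differences were 0.77 for Pdlim3, 0.76 for Tpm2, 0.74 for Scin, 0.73 for Nrn1 and 0.75 for Ank1. With all arrays the differences were 0.70 for Scin, 0.58 for Nrn1 and 0.71 for Ank1. The part of HH 10 alone, and that of muscle transcripts as such, was not tested.

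Without the 4 arrays bright in transcripts of neighbouring organs, a fit chosen after seeing the data, 6 probes (0.0421%) were called for a slope difference, in 6 genes. All had higher slopes in HH than in LH. They were Ass1, argininosuccinate synthase (0.24 per g in HH, -0.30 in LH), Nrn1 (0.49 and -0.24), Uroc1, urocanase of histidine breakdown (0.26 and -0.22), Gnmt, glycine N-methyltransferase (0.21 and -0.37), Gm4956 (0.50 and -0.025) and Slco2a1, a prostaglandin transporter (0.75 and -0.027), with adjusted p between 0.0251 and 0.0473. HH 7 was kept in this fit, and its part in the differences was not tested. For Nrn1 it had 589.3 units, against a median of 102.6 over all 10 HH animals. In the model with length a single probe was called for the difference between HH and LH, that of Plau, the urokinase plasminogen activator (0.21 per g in HH, -0.16 in LH, adjusted p = 0.0302).

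No slope passed in the LF fed animals, and no difference between HF fed and LF fed slopes did. Every HF fed animal weighed 27.2 g or more, while LF fed animals weighed 20.38 to 25.82 g in HL and 23.38 to 26.83 g in LL. Their slope had 0 calls of 14244 (0%, smallest adjusted p = 0.872, 348 probes or 2.44% at an unadjusted p under 0.05, 321 of them, 2.25%, negative), and the slope difference of HF fed minus LF fed animals had 0 calls (smallest adjusted p = 0.998, 254 probes or 1.78%, of which 165, 1.16% of all, were positive). The median SE of a slope was 0.026 in HF fed and 0.0438 in LF fed animals, and 5 LF fed arrays stood apart with low mean correlation to the others. With length in the model, LF fed animals had 0 calls and 28 probes at an unadjusted p under 0.05. Of the 31 probes called in HF fed animals, 28 had a negative slope in LF fed animals, from -0.21 to 0.058 with SE of 0.0599 to 0.298, and 0 had an unadjusted p under 0.05. Without the 5 arrays that stood apart 17 of the 31 were negative. The difference between HF fed and LF fed slopes at a given length had 0 calls and 109 probes at an unadjusted p under 0.05, 3 of them among the 31, so the 31 slopes are not shown to be particular to HF fed animals.

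Within cages, where the 19 animals of 7 cages with over 1 HF fed animal carry the slope, 0 of 14244 probes (0%) were called (smallest adjusted p = 0.222) and 1862 (13.1%) had an unadjusted p under 0.05, 765 positive (5.37%) and 1097 negative (7.7%). Without HH 7 it was 692 probes (4.86%). Among the genes named above, St6galnac5 had -0.25 (p = 0.00011, adjusted p = 0.222) and Txnrd3 -0.094 (p = 0.00037). Alas1 had -0.054 within cages, against -0.083 within groups.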

How the data were processed

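Gonadal fat RNA of 40 mice was hybridised to 1 Illumina MouseRef-8 bead array each. The authors quantile-normalized the arrays, and the deposited values are normalized intensity on a linear scale (47.5 to 43659 units). BeadStudio, named in the submitters' processing notes, is given with no version. Per the labels, groups are maternal and post-weaning diets, and numbers after a group name only tell its animals apart. Probes were named from the platform annotation (23978 with 1 gene, 0 with several, 1719 unnamed), with symbols updated through gene identifiers (23962 matched).

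From the deposited intensity, log2 values were computed. Background on an array was the 95th percentile of 1304 probes for olfactory and vomeronasal receptors (81.5 to 94.285 units on the HF fed arrays), and 14244 of 25697 probes (9795 genes), above it on at least 20 of 40 arrays, were tested. Each of the 20 HF fed arrays had a mean correlation with the others of 0.937 to 0.961, and 0 pairs of arrays were identical.

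Slopes were fitted with limma 3.58.1 in R 4.3.3 (eBayes with an intensity trend) on second weight centred on the group mean, with the group as a term, and called at a Benjamini-Hochberg adjusted p under 0.05. Slope differences were tested as contrasts of 2 slopes. Body measures and named probes were tested by permutation of weights within groups (100000 resamples, two-sided, Python 3.11.15, SciPy 1.17.1). Scripts were tested on simulated data. All tests are over animals, and p-values take animals of a cage as independent unless the cage is in the model.

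Named were the 12 smallest p in each direction, up to 4 genes of each list by p, 20 genes whatever their result, the 5 smallest p of each slope difference, and every gene called with length in the model, which was chosen for description after its calls were seen. Members and lists were chosen with earlier results of these data known. A gene of a list is its brightest probe. Alternatives covered filters, scaling, variance models, array weights, cages, weight measures, covariates, and animals and cages left out.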

Additional observations from a re-analysis of the deposited data

Results flagged for a closer look

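In groups of 8 or 10 animals, the highest or lowest value of a named probe was checked for a gap to its neighbour that is large beside the group's range. Over 117 probes and 3 body measures, 27 of 240 checks were met (11.2%), and most belonged to 1 animal. Chance flags about 1 in 20 groups, but many of these probes were named for a small p on weight, so the share cannot be read against that rate. HH 7, the heaviest animal, stood above the rest of HH in Prr15 (1668.5 units), Itga2b (364.1), Shmt2 (138.9), Fam171a2 (524.9), Ilvbl (196.8), Slc41a2 (359.0), Ank1 (1813.9 and 1703.7 at 2 probes), Bmp3 (1955.6), Tpm2 (6491.5), Scin (1256.3) and Nrn1 (589.3). It stood below them in Selenbp1 (2104.9 units), Trit1 (290.6), Vnn3 (377.7), an unnamed probe (181.6) and Sgk3 (154.6).

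Other animals were set apart in single genes. In HH these were Lep in HH 6 (6398.1 units, the lowest), Scd1 (30935.8) and Adgre1 (795.2) in HH 10 (lowest), Ccl2 (707.8) and Timp1 (1216.1) in HH 5 (highest), Sdhb in HH 6 (3551.8, highest), Svs6, a seminal vesicle gene, in HH 1 (601.2, highest) and Fam126b in HH 4 (993.5, highest). In LH they were Spata6 in LH 5 (1232.0 units, highest) and Fam126b in LH 2 (560.2, lowest).

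Slopes differed between HH and LH by a test of the difference itself in 7 genes under alternative fits. Plau differed by 0.37 log2 units per g at a given length. Without the 4 arrays bright in transcripts of neighbouring organs, the differences were 0.55 for Ass1, 0.73 for Nrn1, 0.48 for Uroc1, 0.58 for Gnmt, 0.52 for Gm4956 and 0.78 for Slco2a1. HH 7 was among the animals of these fits, and its part in the differences was not tested.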

How the results depend on the processing

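The slope on second weight had 0 calls in all alternatives but 1, the filters, scalings, variance models, cage terms, weight measures, glucose as a covariate and each animal or cage left out in turn included. The exception was body length in the model (31 calls). The slope difference of HH minus LH had 0 calls except without the 4 arrays bright in transcripts of neighbouring organs (6 calls, chosen after seeing the data) and with length in the model (1 call, Plau). For the model with length, all alternatives were chosen after seeing the data. Its count was 0 without the length term, 3 with no filter, 29 without the intensity trend, 33 with arrays centred on their median, 281 with array weights, 18 with the cage as a random effect, 0 with it as a fixed term, 11 without the 4 arrays bright in transcripts of neighbouring organs, 0 without the 4 animals heaviest for their length, and 0 to 56 with 1 animal left out, and the cause was not tested. Called slopes were positive in 43 of the 281 with array weights. Among named genes, St6galnac5, Mycl and Trit1 passed with length added, and Nrn1 passed for the slope difference without the 4 arrays. A change of sign in a slope that was not called was not counted as a reversal. The correlation of second weight with weight at 3 weeks was 0.33 with values centred on cage means. No paired analysis was possible because the replicate numbers only follow the order of the samples and no cage holds HH and LH animals. Some cages hold HF fed and LF fed animals, and their slope difference had 0 calls with the cage as a random effect. The number of arrays, 20 or 18, limits the precision of every slope.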
